A study of Mus musculus with 6 samples.

Results

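The 10 genes followed here mark or serve the intercalated cells of the kidney collecting system, and were read in RNA of whole mouse kidneys. They were taken by symbol from a table of 55401 Ensembl gene IDs, and each of the 10 symbols matched 1 ID. There were 3 samples labelled DKD, for diabetic kidney disease, and 3 labelled control, each sequenced as one poly(A)-selected, strand-marked library. The labels give DKD or Control under genotype and a replicate number. They name no allele, strain, way of inducing diabetes, agent, sex, age or day of collection for either group, so the kind of diabetes model is not known here. Whether every library came from its own mouse is not stated either, so p-values reflect how far these 6 libraries vary, and some of that may be technical. All 10 genes passed the filter on low counts, with at least 1275 counts in every library.

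Intercalated cells sit among the principal cells of the connecting tubule and collecting duct and set the final acid or base content of urine. They carry a vacuolar proton pump (V-ATPase) in which some subunits are isoforms largely limited to specialised acid-secreting cells. Type A cells pump protons into the urine and return bicarbonate to the blood through the exchanger Slc4a1. Type B cells secrete bicarbonate through the apical exchanger Slc26a4, known as pendrin. Both types form under the forkhead transcription factor Foxi1 and use the cytosolic carbonic anhydrase Car2 to make protons and bicarbonate. The 10 genes were read as 1 type A gene (Slc4a1), 3 type B genes (Slc26a4, Slc4a9 and Insrr) and 6 genes used by both (Foxi1, Car2 and the pump subunits Atp6v1b1, Atp6v1g3, Atp6v0a4 and Atp6v0d2).

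Library totals ran from 71588579 to 77417638 counts in DKD and from 64816622 to 72845799 in control kidneys. Markers of proximal tubule, loop, distal tubule and collecting duct (Lrp2, Slc34a1, Umod, Slc12a1, Slc12a3 and Aqp2) were present in all 6 libraries. DKD replicate 1 stood apart from the other DKD kidneys. On the first principal component (44.4% of the variance) its score of -27.4 was closer to those of the control kidneys (-49.6 to -39.5) than to those of DKD replicates 2 and 3 (76.1 and 87.1), and the second (21.0%) set it apart from all others. It also held hepatocyte transcripts: 16 such genes summed to 5057 CPM there (read counts scaled to library size with TMM factors), against 582 and 715 CPM in DKD replicates 2 and 3 and 558 to 690 CPM in control kidneys. Fold changes without DKD replicate 1 are therefore given in the text or in the plot of fitted changes for each of the 10 genes. With the quasi-likelihood test of edgeR on all 6 libraries, 0 of 19197 genes (0%) passed an adjusted p of 0.05 and 3694 (19.2%) had an unadjusted p under 0.05. Limma-voom with sample quality weights called 3397 genes (17.7%) and DESeq2 1749 (9.11%).

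Most of the 10 genes had a somewhat higher fitted level in DKD kidneys, by modest amounts, and none passed the edgeR threshold on 6 libraries. The proton pump subunits Atp6v0d2 and Atp6v1b1 and the factor Foxi1 did not overlap between groups, with all DKD kidneys above all control kidneys. Car2, Atp6v0a4, Atp6v1g3 and Slc26a4 lay within 0.2 of 0 on the log2 scale. The fitted log2 change was above 0 for 8 of the 10 genes, with a median of 0.32, while over all genes tested 52.4% lay above 0 and the median was 0.02. An unadjusted p under 0.05 was reached by 4 of them, all higher in DKD (Atp6v0d2, Atp6v1b1, Foxi1 and Slc4a9), beside 12.2% of all genes, and by none in the lower direction, beside 7.05%. The groups did not overlap for 3 of the 10, beside 13.8% of all genes that were higher in DKD without overlap. Scaling by library size alone, which placed the median of all genes at 0.17, gave 6 genes without overlap (Slc4a1, Slc4a9 and Insrr in addition), beside 20.4% of all genes, and 9 of 10 fitted higher. Whether there are more such cells or more of each transcript per cell cannot be told apart in RNA of a whole kidney.

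Without DKD replicate 1 the edgeR test called Atp6v0d2 and Atp6v1b1 higher, beside 9.67% of all genes tested. Limma-voom with sample quality weights called these genes and Foxi1, beside 9.94% of all genes, and DESeq2 called Atp6v0d2 and Atp6v1b1, beside 6.22%. None of these 3 fits called any of the 10 genes lower, beside 5.84%, 7.75% and 2.89% of all genes. Without DKD replicate 3 edgeR called 0 of the 10, beside 0.0051% of all genes, which were lower. Without control replicate 1 it also called 0 of the 10, beside 0.0348% of all genes (0.0298% higher and 0.00497% lower). All fits draw on one set of libraries and do not count as separate evidence.

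**Figure D1:**
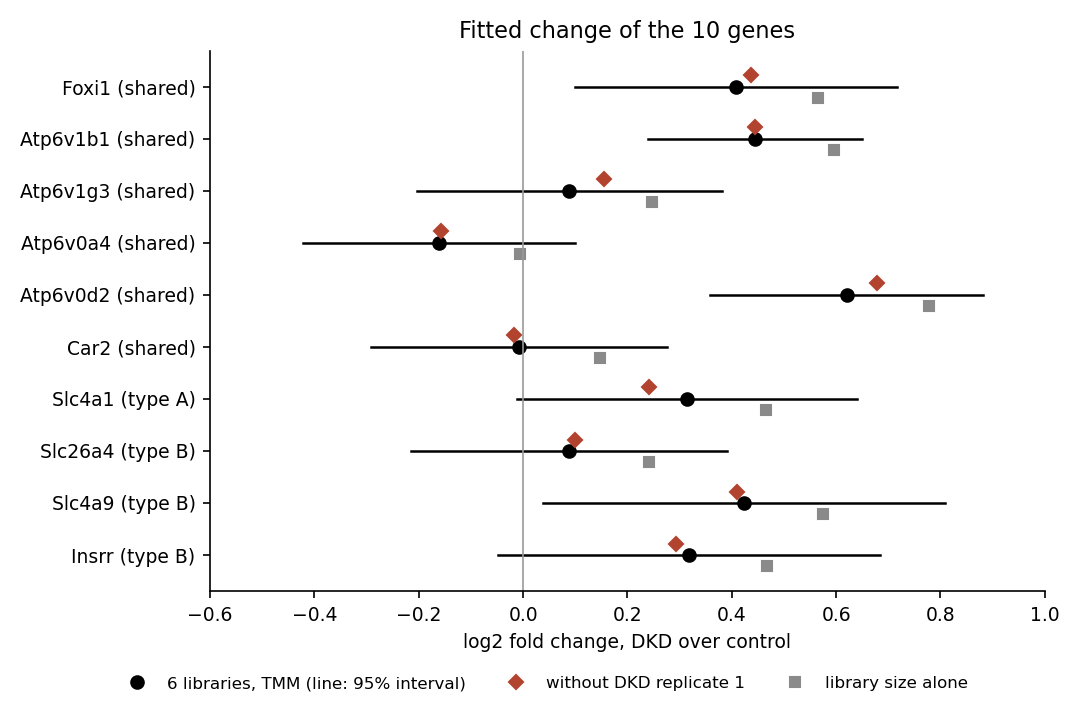
Fitted log2 fold change of DKD over control kidneys (x axis) for each of the 10 genes (rows, with cell type in brackets). Black points and lines are the edgeR estimate on 6 libraries and its 95% interval, red diamonds the estimate without DKD replicate 1, and grey squares the estimate with library size alone. The intervals of Atp6v0d2, Atp6v1b1, Foxi1 and Slc4a9 lie above 0, and the grey squares sit to the right of the black points for all 10 genes.

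Foxi1, the transcription factor that intercalated cells need to form, had 27.9, 32.0 and 28.5 CPM in DKD kidneys, against 25.9, 19.3 and 21.4 CPM in control kidneys. The lowest DKD kidney was thus just above the highest control kidney. Its fitted log2 change was 0.41 ± 0.13 (SE; edgeR adjusted p = 0.175), or 0.44 without DKD replicate 1 (adjusted p = 0.0860 with edgeR). Only limma-voom with quality weights, among the fits tried, placed it past the threshold (adjusted p = 0.0211). Tfcp2l1, another transcription factor of collecting duct cells, had 323, 354 and 332 CPM in DKD, against 235, 288 and 241 CPM in control kidneys, a log2 difference of 0.40 ± 0.12 (SE; adjusted p = 0.157 with edgeR).

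The V-ATPase is built of a catalytic sector in the cytosol (V1) and a proton channel in the membrane (V0). Atp6v1b1 encodes the B1 subunit of V1, whose loss causes distal renal tubular acidosis in humans. It had 97.6, 105.7 and 93.4 CPM in DKD kidneys, against 74.5, 73.2 and 70.4 CPM in control kidneys. The lowest DKD kidney lay well above the highest control kidney. On the log2 scale the groups differed by 0.44 ± 0.09 (SE; adjusted p = 0.103 with edgeR; 95% interval 0.24 to 0.65). Without DKD replicate 1 it was also 0.44 (adjusted p = 0.0264 with edgeR).

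Atp6v0d2 encodes the d2 subunit of V0, a stalk part that in mice is found in intercalated cells and also in osteoclasts and macrophages. It had 34.7, 41.1 and 39.3 CPM in DKD kidneys, against 26.1, 26.6 and 22.2 CPM in control kidneys. Of the 10 genes it had the largest fitted difference, 0.62 ± 0.11 on the log2 scale (SE; adjusted p = 0.103 with edgeR), and the only one above 1.5-fold. That difference stood at the 80.6th percentile of all genes tested, so about 1 gene in 5 had a higher one. Without DKD replicate 1 it was 0.68 (adjusted p = 0.0108 with edgeR). Of 16 macrophage and osteoclast markers 14 were tested and 12 had a higher fitted level in DKD, with a median log2 change of 1.095. In the fit without DKD replicate 1 the median over the genes tested there was 1.503, and the edgeR test called 10 higher, beside 9.67% of all genes, and 1 lower, beside 5.84%. Cd68, a macrophage marker, had 3.10, 7.47 and 10.6 CPM in DKD kidneys, against 2.32, 2.29 and 2.23 CPM in control kidneys. The summed level of all markers was 244, 334 and 398 CPM in DKD replicates 1 to 3, against 224 to 265 CPM in control kidneys. Csf1r and Acp5, with fitted log2 changes of 0.03 and -0.50, made up most of that sum in control kidneys and DKD replicate 1. In DKD replicates 2 and 3 most of it came from the other markers (Csf1r 58.2 and 66.3 CPM, Acp5 47.7 CPM in each). The osteoclast fusion genes Dcstamp and Ocstamp were at most 0.224 CPM in any library. The part of these cells in the Atp6v0d2 result was not tested.

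Atp6v1g3, the G3 subunit of the V1 stalk, had 23.6, 29.8 and 25.9 CPM in DKD kidneys, against 27.7, 23.7 and 23.2 CPM in control kidneys. The groups overlapped in part, with a log2 difference of 0.09 ± 0.12 (SE; adjusted p = 0.722 with edgeR; 95% interval -0.20 to 0.38). Without DKD replicate 2 its direction turned, to a log2 difference of -0.0056.

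Atp6v0a4 encodes the a4 subunit of V0, which mouse proximal tubules also use. It had 266, 281 and 266 CPM in DKD kidneys, against 332, 306 and 271 CPM in control kidneys. It differed by -0.16 ± 0.11 on the log2 scale (SE; adjusted p = 0.452 with edgeR; 95% interval -0.42 to 0.10), and -0.0060 with library size alone. In the annotation of the GRCm38 build, 62 exon bases of Atp6v0a4 are shared with Tmem213 on the opposite strand and 259 with D630045J12Rik on the same strand, of 4973 in all. Reads there cannot be assigned with certainty, since the strand setting of the counting is not given in the sources used here. Both neighbours had overlapping groups, with log2 differences of 0.13 ± 0.17 and -0.05 ± 0.09 (SE).

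**Figure D2:**
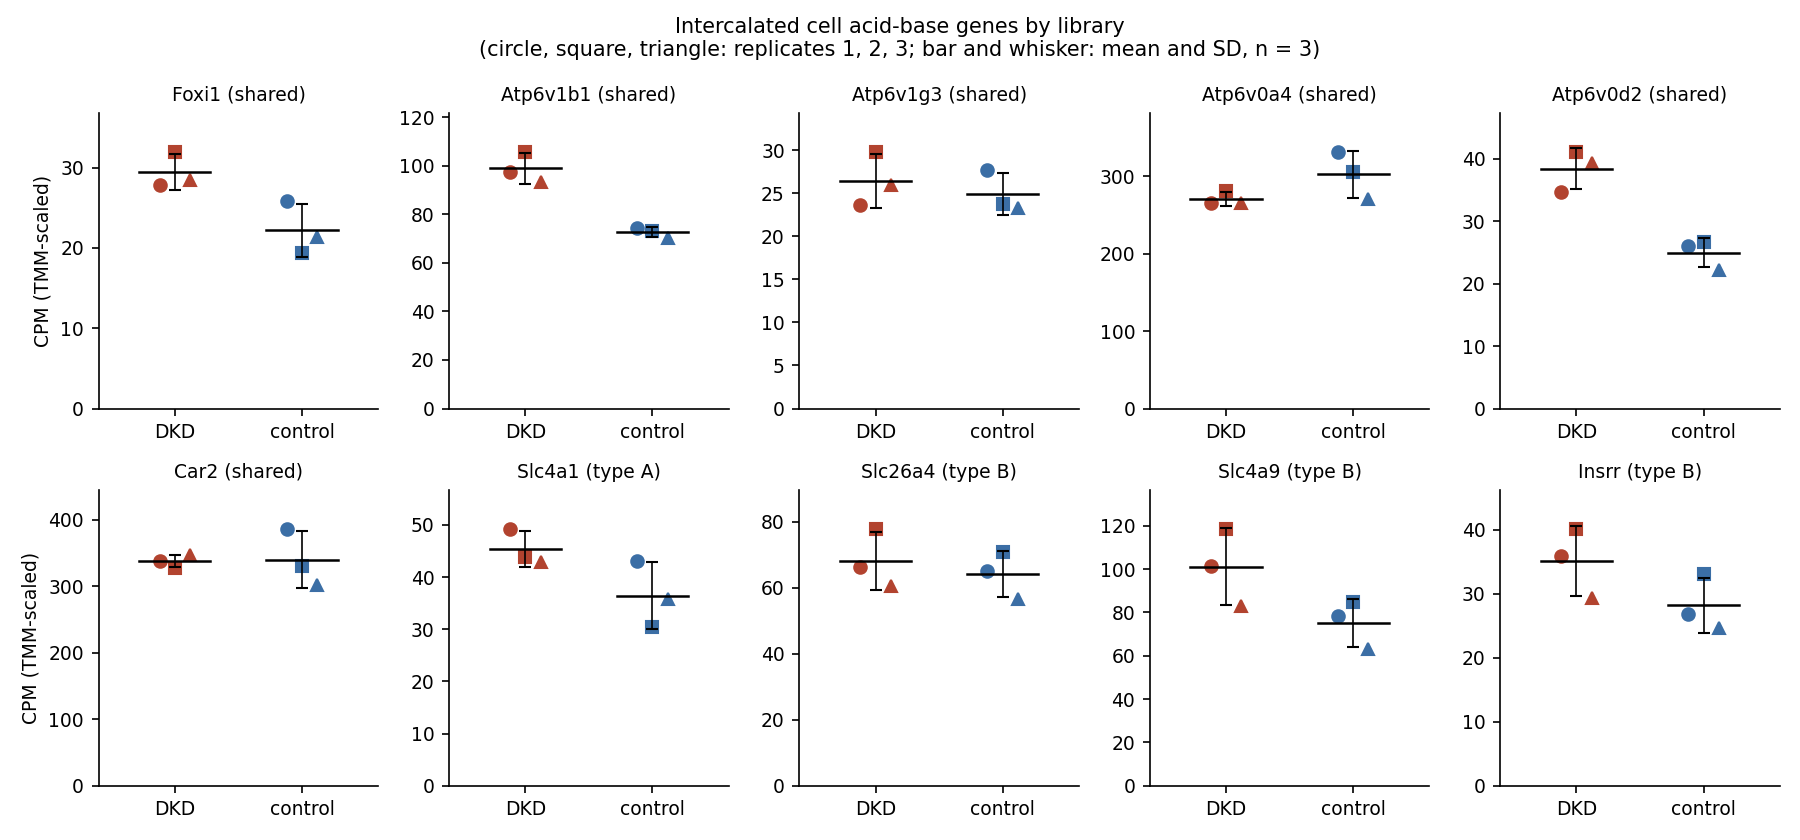
CPM scaled by TMM factors (y axes, from 0) of each gene in 3 DKD kidneys (red, left) and 3 control kidneys (blue, right). Circles, squares and triangles are replicates 1, 2 and 3, with the mean as a bar and the SD as a whisker. The groups are apart for Foxi1, Atp6v1b1 and Atp6v0d2 and overlap for the other genes.

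Windows at the start of transcription of 5 of the 10 genes were taken from the RefSeq promoter table (GRCm38.p6). Atp6v0d2, Slc4a1, Slc4a9, Car2 and Insrr had no window among the 5. The search skipped 1 chromosome, so a member there was left out whether or not its window was available. Those of Atp6v1b1 and Atp6v0a4 are shown because these pump subunits differed most from each other among the 5. Each runs from 250 bases before to 50 bases after the start, on the strand of the gene, and capitals mark the forkhead motif TGTTTAC (searched on both strands, as TGTTTAC and GTAAACA, which do not overlap each other here). The Atp6v1b1 window is chr6:83742767-83743066 on the + strand and the Atp6v0a4 window chr6:38124537-38124836 on the - strand.
Atp6v1b1: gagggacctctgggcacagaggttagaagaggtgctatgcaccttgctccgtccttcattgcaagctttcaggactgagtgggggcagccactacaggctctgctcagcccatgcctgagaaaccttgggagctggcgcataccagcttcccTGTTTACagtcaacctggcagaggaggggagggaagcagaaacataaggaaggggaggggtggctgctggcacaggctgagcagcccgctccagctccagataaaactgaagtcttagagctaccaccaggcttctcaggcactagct
Atp6v0a4: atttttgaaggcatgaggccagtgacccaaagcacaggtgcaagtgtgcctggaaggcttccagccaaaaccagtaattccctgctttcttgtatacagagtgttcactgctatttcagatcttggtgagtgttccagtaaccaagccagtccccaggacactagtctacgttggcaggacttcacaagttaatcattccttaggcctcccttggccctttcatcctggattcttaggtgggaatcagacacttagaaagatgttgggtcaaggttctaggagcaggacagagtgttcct
The motif was present in 1 of the 5 windows, that of Atp6v1b1, at positions -98 to -92 from the start on the strand of the gene. It was present in 1199 of 32851 windows of the same length in the table (3.65%). A match of letters is a description and does not show binding.

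The widely expressed subunits of the pump gave another picture. Of 16 listed genes (14 subunits and the accessory genes Atp6ap1 and Atp6ap2), 14 had a lower and 2 a higher fitted level in DKD, with a median of -0.14, whereas with library size alone 7 were lower and 9 higher. The median lay 0.16 below that of all genes under both scalings. With TMM factors the groups did not overlap for 5 of the 16, all lower in DKD, beside 11.5% of all genes. The gap was very small for Atp6ap1 (highest DKD kidney 240.9 CPM, lowest control kidney 241.0 CPM) and Atp6v1g1 (130.9 and 131.2 CPM). With library size alone 2 were higher and 2 lower without overlap, beside 20.4% and 4.72% of all genes. None was called with edgeR on 6 libraries. Atp6v1b2, the B2 subunit that most cells use in place of B1, had 359, 350 and 352 CPM in DKD kidneys, against 463, 508 and 467 CPM in control kidneys. It differed by -0.44 ± 0.10 on the log2 scale (SE; edgeR adjusted p = 0.114), and without DKD replicate 1 the edgeR test called it lower (-0.46; adjusted p = 0.0220), beside 5.84% of all genes called lower. Atp6v0c, the proton-binding ring subunit, had the highest fitted difference of the 16 (0.34 ± 0.24, SE), with 240, 366 and 376 CPM in DKD kidneys and 338, 217 and 219 CPM in control kidneys. Its groups overlapped.

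Ratios within a library do not depend on scaling, so each isoform of intercalated cells was set over its widely expressed counterpart. The ratio of Atp6v1b1 to Atp6v1b2 was 0.272, 0.302 and 0.265 in DKD kidneys, against 0.161, 0.144 and 0.151 in control kidneys. The ratio of Atp6v0d2 to Atp6v0d1 was 0.310, 0.433 and 0.429 in DKD, against 0.204, 0.252 and 0.207 in control kidneys. For both pairs every DKD kidney was above every control kidney, by 0.88 and 0.81 between group means on the log2 scale. The ratio of Atp6v1g3 to Atp6v1g1 was 0.198, 0.242 and 0.199 in DKD, against 0.160, 0.173 and 0.178 in control kidneys, also without overlap (log2 difference 0.32). The ratio of Atp6v0a4 to Atp6v0a1 was 4.40, 4.82 and 4.40 in DKD, against 6.85, 4.99 and 4.54 in control kidneys, and the groups overlapped. An exact two-sided permutation test gave p = 0.1 for each of the first 3 pairs, which is the smallest value 3 against 3 libraries allow (adjusted p = 0.167 over 5 ratios, exact permutation test), and p = 0.2 for Atp6v0a4 (adjusted p = 0.25, exact permutation test). No ratio could therefore pass a threshold of 0.05. How often ratios of other genes would not overlap between groups was not computed. Of single genes, 13.8% were higher and 11.5% lower in DKD without overlap. In the first pair Atp6v1b1 had a higher and Atp6v1b2 a lower fitted level. In the third the fitted level of Atp6v1g3 was within 0.2 of 0. Its counterpart Atp6v1g1 had 119, 123 and 130.9 CPM in DKD, against 174, 138 and 131.2 CPM in control kidneys.

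**Figure D3:**
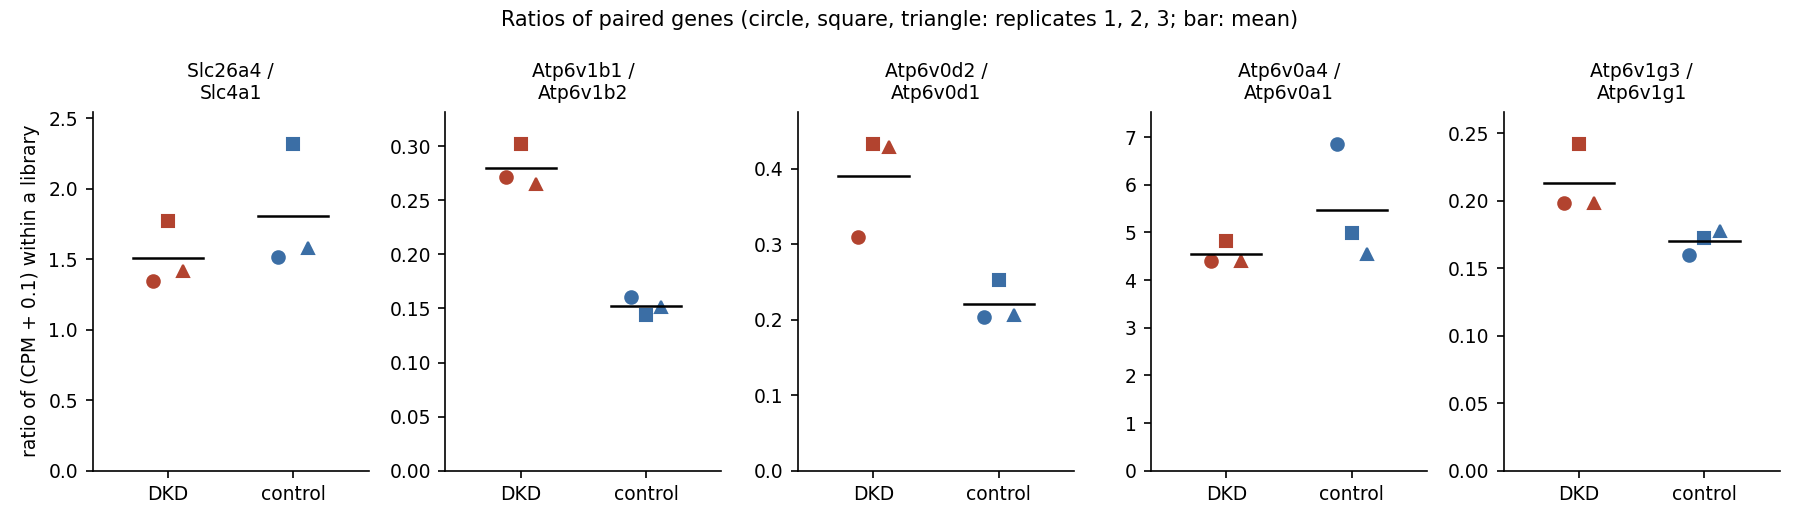
Ratio of the CPM of paired genes within each library (y axes, from 0, with 0.1 CPM added to both genes) in DKD kidneys (red, left) and control kidneys (blue, right). Circles, squares and triangles are replicates 1, 2 and 3 and bars are means. The groups are apart for the B1, d2 and G3 isoforms and overlap for the a4 isoform and for Slc26a4 over Slc4a1.

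Car2, the cytosolic carbonic anhydrase that is also made in the proximal tubule and in red blood cells, had 338, 328 and 348 CPM in DKD kidneys, against 386, 331 and 302 CPM in control kidneys. The DKD kidneys lay inside the range of the controls. The log2 difference was -0.01 ± 0.12 (SE; edgeR adjusted p = 0.981; 95% interval -0.29 to 0.28), so a difference of up to 0.29 in size is within the interval. Its direction turned with library size alone (0.15), which is close to the shift of all genes. Among 11 other carbonic anhydrase genes, 5 had a higher and 6 a lower fitted level in DKD, with a median of -0.05, and with library size alone 7 were higher. Car8, a relative with no enzyme activity, had 4.95, 5.97 and 7.95 CPM in DKD, against 2.74, 3.30 and 2.53 CPM in control kidneys (1.14 ± 0.24 on the log2 scale, SE). The membrane-bound Car4 had 129, 91.0 and 83.2 CPM in DKD, against 148, 146 and 164 CPM in control kidneys (-0.59 ± 0.17). Car9, a target of hypoxia signalling, had 22.1, 10.5 and 7.94 CPM in DKD, against 23.7, 41.5 and 67.2 CPM in control kidneys (-1.71 ± 0.52). None passed with edgeR on 6 libraries, where their adjusted p ran from 0.109 to 0.175. Without DKD replicate 1 the edgeR test called 3 of the 11 higher and 2 lower, beside 9.67% and 5.84% of all genes, and the median of the 11 was -0.29. Car3, picked with its values in view, was at 0.45 on 6 libraries and at -1.08 without that kidney.

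Slc4a1, the basolateral chloride-bicarbonate exchanger of type A cells, had 49.2, 43.9 and 42.8 CPM in DKD kidneys, against 43.1, 30.5 and 35.8 CPM in control kidneys. Control replicate 1 lay inside the DKD range and the other control kidneys lay below it. Slc4a1 differed by 0.31 ± 0.14 on the log2 scale (SE; adjusted p = 0.272 with edgeR; 95% interval -0.01 to 0.64), and 0.24 without DKD replicate 1 (adjusted p = 0.323 with edgeR). Leaving out each library in turn gave log2 differences of 0.20 to 0.45. Slc4a1 is also the main membrane protein of red blood cells. Of 13 erythroid markers 12 had a row and 8 were tested, 7 with a higher fitted level in DKD (median 0.33). The median was -0.21 without DKD replicate 1, so the higher median rested on that library. Sptb did not follow, with a log2 difference of 1.01 on 6 libraries and 1.21 without DKD replicate 1. The sum of the erythroid markers was 898, 450 and 333 CPM in DKD replicates 1 to 3, against 369 to 566 CPM in control kidneys. The erythroid gene Rhag was at most 0.208 CPM and Gata1 had no count in any library, which allows up to 0.0505 CPM in the shallowest. The part of erythroid RNA in the Slc4a1 result was not tested.

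The 5 other type A genes listed had fitted levels above 0 on 6 libraries with each scaling tried, though not under every fit. Slc26a7 was at -0.18 without DKD replicate 1 and -0.28 with limma-voom, and Atp4a at -0.039 in the lowest of the fits that leave out 1 library. Aqp6, a water channel of type A cell vesicles, had 57.9, 52.8 and 54.2 CPM in DKD kidneys, against 47.6, 43.9 and 40.7 CPM in control kidneys, without overlap (0.32 ± 0.09 on the log2 scale, SE; adjusted p = 0.156 with edgeR). Kit, a receptor tyrosine kinase found on type A cells, had 16.7, 24.1 and 22.7 CPM in DKD, against 11.4, 15.7 and 12.4 CPM in control kidneys (0.69 ± 0.19; adjusted p = 0.143 with edgeR). Dmrt2, a transcription factor, differed by 0.53 ± 0.25 and the proton-potassium pump subunit Atp4a by 0.32 ± 0.33. The exchanger Slc26a7 differed by 0.03 ± 0.28. Atp4a was low in DKD replicate 1 (24.0 CPM) and high in the other DKD kidneys (66.4 and 47.7 CPM), against 36.2 to 37.2 CPM in control kidneys. Without DKD replicate 1 the edgeR test called Kit (0.82), Dmrt2 (0.73) and Atp4a (0.62) higher, beside 9.67% of all genes. The median of these 5 genes was 0.32 on 6 libraries and 0.62 without DKD replicate 1, beside 0.32 and 0.27 for the 10 genes first described.

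Slc26a4, pendrin, had 66.2, 77.9 and 60.6 CPM in DKD kidneys, against 65.2, 70.7 and 56.6 CPM in control kidneys. The groups overlapped almost entirely. The log2 difference was 0.09 ± 0.13 (SE; edgeR adjusted p = 0.736; 95% interval -0.22 to 0.39), and -0.018 without DKD replicate 2.

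Slc4a9, also called AE4, a bicarbonate transporter in the basolateral membrane of type B cells, had 101, 119 and 83.0 CPM in DKD kidneys, against 78.2, 84.6 and 63.1 CPM in control kidneys. DKD replicate 3 lay just under control replicate 2, so the groups overlapped by that pair. The log2 difference was 0.42 ± 0.16 (SE; edgeR adjusted p = 0.227; 95% interval 0.04 to 0.81), and 0.41 without DKD replicate 1 (adjusted p = 0.177 with edgeR). Insrr, a receptor of the insulin receptor family that is activated by alkaline pH, had 35.9, 40.2 and 29.4 CPM in DKD kidneys, against 26.8, 33.0 and 24.7 CPM in control kidneys. Insrr differed by 0.32 ± 0.16 on the log2 scale (SE; edgeR adjusted p = 0.309), and here too DKD replicate 3 lay under control replicate 2. Of its relatives, Igf1r had 143, 136 and 122 CPM in DKD, against 172, 246 and 218 CPM in control kidneys (-0.67 ± 0.15; adjusted p = 0.114 with edgeR). The insulin receptor gene Insr, chosen here after its values were seen, differed by 0.05 ± 0.10.

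Of the other type B genes, Oxgr1, a receptor for alpha-ketoglutarate, had 27.9, 34.9 and 30.1 CPM in DKD kidneys, against 21.8, 19.6 and 14.3 CPM in control kidneys. Oxgr1 differed by 0.74 ± 0.17 on the log2 scale (SE; edgeR adjusted p = 0.119), above that of each of the 10 genes. Without DKD replicate 1 the edgeR test called it higher (0.80; adjusted p = 0.0301), beside 9.67% of all genes. Slc4a8, a sodium-dependent bicarbonate exchanger, had 10.5, 11.5 and 9.0 CPM in DKD, against 8.58, 6.00 and 6.84 CPM in control kidneys (0.53 ± 0.19). The transcription factor Hmx2 averaged 6.66 ± 0.66 CPM in DKD and 6.68 ± 2.28 CPM in control kidneys (SD, n = 3). Among shared genes, the ammonia channels Rhcg and Rhbg differed by 0.18 ± 0.14 and 0.32 ± 0.16 and the pump subunit Atp6v1c2 by 0.12 ± 0.15, all with overlap.

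The exchangers that define the 2 cell types were set over each other. This compares transcripts of a whole kidney and not numbers of cells, and the erythroid part of Slc4a1 was not tested. The ratio of Slc26a4 to Slc4a1 was 1.34, 1.77 and 1.41 in DKD kidneys, against 1.51, 2.32 and 1.58 in control kidneys. The ranges overlapped, and the log2 difference of -0.24 gave p = 0.4 in an exact two-sided permutation test (adjusted p = 0.4 over 5 ratios, exact permutation test). Control replicate 2, with the lowest Slc4a1 value of all libraries, had the highest ratio, and without it the log2 difference was -0.04. The 6 type A markers listed had a median log2 difference of 0.32 and the 6 type B markers 0.37, and no test of that difference was made.

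Levels between genes were compared per kilobase of exon, with exon lengths from the GENCODE M21 annotation of GRCm38. Car2 was highest, at 139.6 ± 4.0 CPM per kb in DKD and 140.3 ± 17.7 in control kidneys (SD, n = 3), followed by Atp6v0a4 at 54.5 ± 1.7 and 60.9 ± 6.1. In DKD kidneys Atp6v1b1 (22.6 ± 1.4) and Slc26a4 (21.9 ± 2.8) came next and overlapped. In control kidneys Slc26a4 (20.6 ± 2.3) was above Atp6v1b1 (16.6 ± 0.5) in each library. Slc4a9, Atp6v0d2, Atp6v1g3 and Foxi1 followed in DKD at 12.5 to 15.8 CPM per kb, each overlapping with the next in order, and the same 4 genes lay at 9.19 to 13.2 in control kidneys. Slc4a1 was at 9.26 ± 0.70 in DKD and 7.45 ± 1.30 in control kidneys. Insrr was the lowest of the 10 in both groups, at 6.15 ± 0.95 in DKD and 4.93 ± 0.76 in control kidneys. Per length Atp6v1b2 was at 66.7 ± 0.9 in DKD and 90.4 ± 4.7 in control kidneys, above Atp6v1b1 in both groups.

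**Figure D4:**
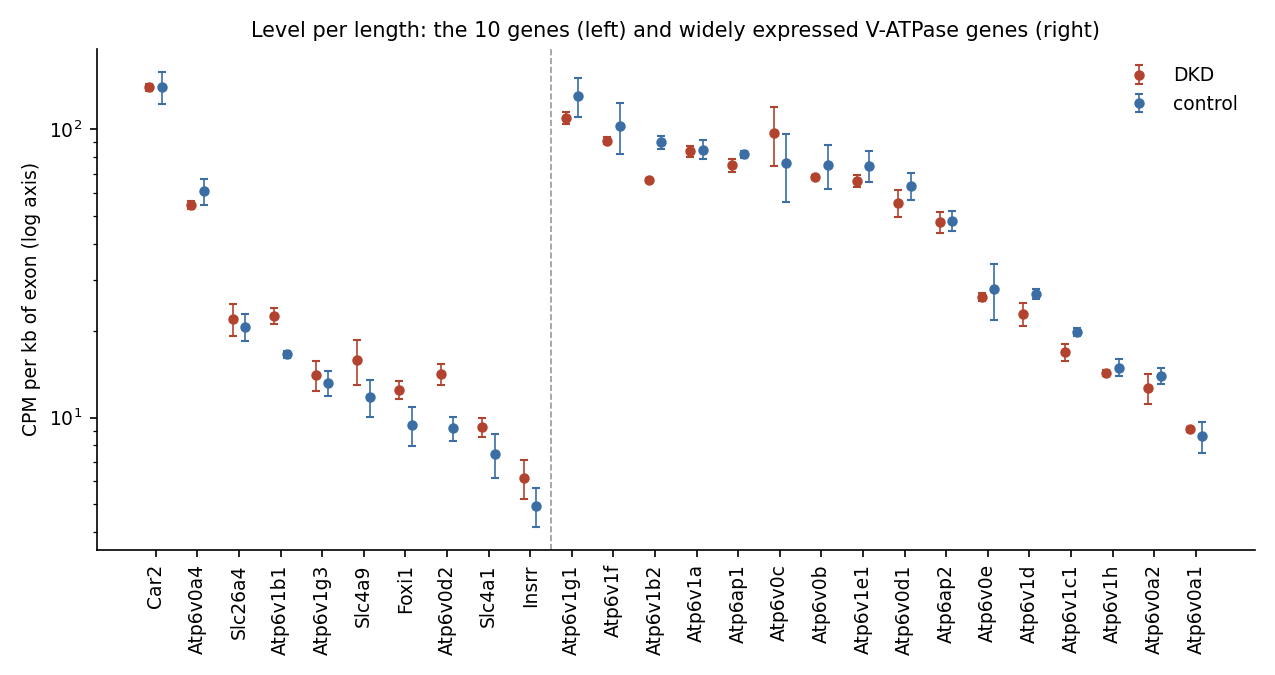
CPM per kilobase of exon (y axis, log scale) of the 10 genes (left of the dashed line) and of 16 widely expressed V-ATPase genes (right), in the order of the control mean. Points are means of 3 DKD (red) or 3 control kidneys (blue) with SD. Car2 and Atp6v0a4 stand above the other 8 genes, which lie between 4.93 and 22.6 CPM per kb.

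Genes of neighbouring segments were set beside these values. Of 13 principal cell genes 10 had a higher fitted level in DKD (median 0.22), and 6 were higher and 2 lower without overlap, beside 13.8% and 11.5% of all genes. The matrix protein Npnt differed by 0.60 ± 0.13, the transcription factor Elf5 by 1.80 ± 0.40 and the water channel Aqp4 by -0.97 ± 0.24 (log2, SE). Without DKD replicate 1 the edgeR test called 3 of the 13 higher and 2 lower, beside 9.67% and 5.84% of all genes. Of 7 genes of the distal convoluted and connecting tubule 6 had a higher fitted level (median 0.74), and 5 were called higher and 1 lower without DKD replicate 1, beside the same shares of all genes. Examples on 6 libraries were the calcium channel Trpv5 (0.87 ± 0.22), the calcium binder Calb1 (0.83 ± 0.23) and the salt transporter Slc12a3 (0.63 ± 0.24). Of 12 proximal tubule genes 11 had a lower fitted level (median -0.51), among them Hnf4a (-0.66 ± 0.13) and Slc27a2 (-0.60 ± 0.16), and with library size alone 10 did. Since CPM are shares of a library, the part that the lower proximal levels had in the values of the intercalated cell genes was not tested.

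Bicarbonate and ammonia genes of other segments did not lean to one side. Of 14, 8 had a higher and 6 a lower fitted level (median 0.08), and 9 were higher with library size alone. Slc38a3, which takes up glutamine for ammonia production, had 145, 119 and 116 CPM in DKD kidneys, against 77.4, 59.0 and 83.1 CPM in control kidneys. This was a fitted log2 change of 0.79 ± 0.16 (SE; edgeR adjusted p = 0.103), or 0.68 without DKD replicate 1. In that fit Slc38a3 was called higher (adjusted p = 0.0271 with edgeR), beside 9.67% of all genes. The anion exchanger Slc4a3 differed by 0.65 ± 0.22 (log2, SE), also with a higher fitted level in DKD.

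**Figure D5:**
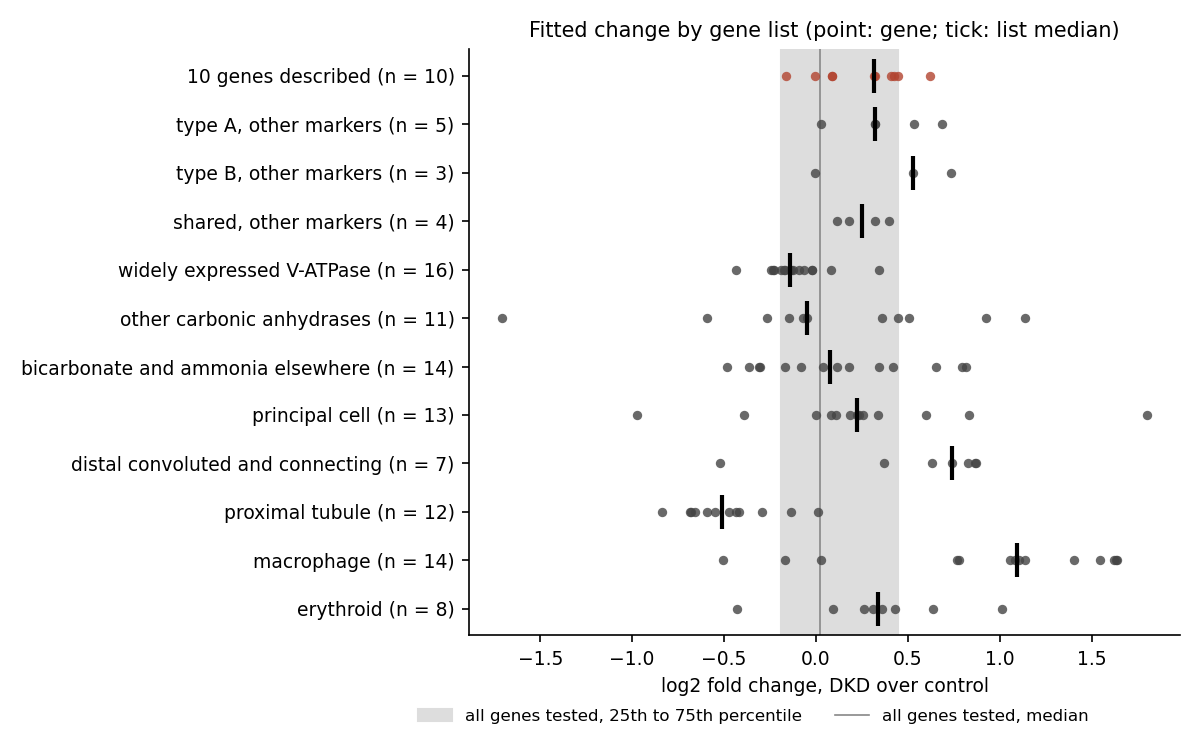
Fitted log2 fold change of DKD over control kidneys (x axis) for single genes (points) of each list (rows), with the list median as a tick. The grey band spans the 25th to 75th percentile of all genes tested (-0.19 to 0.45) and the grey line is their median. The 10 genes (red) have a median of 0.32, and 14 of 16 widely expressed V-ATPase genes lie below 0 with TMM factors, where 7 of 16 do with library size alone.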

How the data were processed

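Per the labels, poly(A) RNA of whole kidneys was sequenced from strand-marked libraries. The authors deposited raw read counts per Ensembl gene ID, with no normalisation. The submitters' processing notes list HISAT2, StringTie, fastp and edgeR and the build GRCm39. Which tool made the counts, the annotation and the strand setting were not found in those notes. Symbols came from a reference list of gene names, exon lengths from GENCODE M21 (GRCm38) and promoters from RefSeq (GRCm38.p6).

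Counts were tested in R 4.3.3 with edgeR 4.0.16 (robust quasi-likelihood test, TMM factors, default low count filter, two-sided, Benjamini-Hochberg adjustment over 19197 genes, threshold 0.05). CPM are scaled by the TMM factors, and errors of fold changes come from the test statistic. Limma 3.58.1 (voom with sample quality weights), DESeq2 1.42.0, RLE factors, library size alone, other filters, leaving out the 50 most counted genes, a replicate block and leaving out each library were alternatives. The fits were first tested on simulated counts, drawn with the same spread for all genes. There edgeR, limma-voom and DESeq2 each recovered 5.97% of genes changed 1.5-fold. Of genes changed 4-fold they recovered 97%, 95.5% and 95.5%, with 5, 6 and 17 false calls. Ratios used CPM + 0.1 and an exact permutation test. No count allows up to 3 counts in a library, and this covers counting error only. The members and lists were chosen with earlier results of these data known. All 10 members are described, every gene of the intercalated cell and V-ATPase lists may be named, and of each other list the 3 genes with the smallest p. Outside that rule, Csf1r, Acp5, Dcstamp, Ocstamp, Rhag, Gata1, Car3, Insr and markers of kidney segments are also named.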

Additional observations from a re-analysis of the deposited data

How the results depend on the processing

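On 6 libraries edgeR called 0 genes and 0 of the 10 members, also with RLE factors, library size alone, a filter of CPM 1 in 3 libraries, and without the 50 most counted genes. With no filter on low counts it called 4 genes and 0 members. DESeq2 called 1749 genes and 2 members, and limma-voom with sample quality weights 3397 genes and 3 members. Leaving out each library in turn gave 0 to 3101 genes and 0 to 2 members, with the highest counts without DKD replicate 1. Without control replicate 1 there were 7 genes, without DKD replicate 3 there was 1, and neither gave a member. The cause of these shifts was not tested.

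The direction turned for 3 members that lay close to 0. Without DKD replicate 2, Atp6v1g3 was at -0.0056 and Slc26a4 at -0.018, and leave-one-out values ran up to 0.17 for both. Car2 was at 0.15 with library size alone, 0.041 with limma-voom and 0.0090 with the CPM filter, and at -0.088 to 0.093 with single libraries left out, the highest without control replicate 1. The other 7 members kept their direction under each alternative. Leave-one-out ratios kept their direction, from -0.36 to -0.04 for Slc26a4 over Slc4a1, 0.82 to 0.92 for Atp6v1b1, 0.73 to 0.97 for Atp6v0d2, -0.37 to -0.07 for Atp6v0a4 and 0.23 to 0.37 for Atp6v1g3.

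The replicate number was not taken as a pairing. Deviations from the group means of libraries with the same number correlated at 0.02 to 0.03, although each library correlated best with its own number. With the replicate block edgeR called 0 genes and 0 members, and among members the lowest adjusted p was 0.132, for Atp6v0d2. With 3 kidneys per group, members that did not pass are not shown to be equal.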

Other observations

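The genes whose values over the 6 libraries ran closest to 3 of the members were looked up among 14675 other genes with a mean of at least 1 CPM, by the root mean square difference of centred log2 CPM. For Foxi1 they were Apbb1 (0.03), Tspan8 (0.06) and Manba (0.06). Apbb1, an adaptor protein gene, had 13.3, 15.9 and 14.3 CPM in DKD kidneys, against 9.61 to 12.7 CPM in control kidneys. For Slc4a1 they were Gm11007, Mxd4 and Paqr5 (0.06 each), and for Slc26a4 Zfp961 (0.03), Magef1 (0.04) and Ap5s1 (0.05). None of the 9 genes is on the lists of intercalated cell genes used here. Of the other members, Slc4a1 and Atp6v1b1 came closest to Foxi1, at 0.12 each, in places 71 and 72. With 6 libraries many genes share such a course, and the order is a description only.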
